A study of Homo sapiens with 9 samples.

Results

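The genes described here are 39 human genes of homologous recombination, double-strand break repair and the DNA damage checkpoint. They were taken as a list of symbols and matched to Ensembl identifiers, and all 39 were found among the 57338 genes of the expression table. The list was sorted into 8 role groups, from the kinases that sense damage to the enzymes that rejoin DNA ends.

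HEK293T is a line of human embryonic kidney cells with the SV40 large T antigen. These cells were transfected with a pcDNA3.1 plasmid using TransIT-LT1. The plasmid expressed EGFP alone (empty vector), EGFP fused to human protamine 1 (hPRM1) or EGFP fused to human protamine 2 (hPRM2). Live cells with high EGFP signal were sorted 3 days after transfection, and 3 libraries were made for each of the 3 plasmids with a QuantSeq kit, which reads the 3′ ends of polyadenylated transcripts. Expression was transient and came from plasmids, so each library was labelled as a pool of sorted, transfected cells. The labels number the replicates without saying whether they were separate cultures, so p-values measure the spread between these libraries, which may be technical. In bulk RNA, fewer cells expressing a gene and less RNA per cell cannot be told apart.

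A double-strand break is first bound by the MRE11-RAD50-NBN complex, which recruits and activates the kinase ATM, while single-stranded DNA coated with RPA recruits ATR through ATRIP. In S and G2 phase the broken ends are trimmed, and BRCA1, PALB2 and BRCA2 act in the search for the sister chromatid as a template. Outside these phases ends are mostly rejoined directly by the Ku proteins, DNA-PKcs, XRCC4 and DNA ligase IV. Many of these genes are transcribed most strongly in dividing cells. Protamines are the small basic proteins that replace most histones in sperm, and whether cells that express them change the level of repair genes is the question the hPRM2 comparison addresses.

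The libraries did not stand on equal ground. Reads on genes, estimated from the spacing of low RPKM values (reads per kilobase of transcript, scaled to the total reads of the library), were 7870000 to 10760000 for the empty vector, 1270000 to 2650000 for hPRM2 and 4210000 to 5860000 for the libraries labelled hPRM1. Replicate 1 of hPRM2 had 9652 genes above 0, while every other library had at least 14353. PRM2 itself was at 71224, 60050 and 36130 RPKM in the hPRM2 libraries and at 0 in the other 6. PRM1 was at 0 in all 9 libraries, those labelled hPRM1 included. In the libraries labelled hPRM1, 12 red cell markers summed to at least 2063650 RPKM, against at most 73.0 in the other 6, and 18 white cell markers summed to 6728 to 7688 RPKM, against 0.638 to 20.7. At least 9 of the 12 red cell and 17 of the 18 white cell markers were at 1 RPKM or more there, and HBB was at 0 in the other 6 libraries. Markers of HEK293T cells (12 genes such as LIN28B and IGF2BP1) summed to 1.64 to 4.88 RPKM there. Their sum was 821 to 954 RPKM with the empty vector and 629 to 1882 RPKM with hPRM2. Most of it was CDKN2A in these 2 groups, at 545 to 769 and 461 to 1738 RPKM. LIN28B was at 15.9 to 19.4 RPKM with the empty vector and 3.14 to 13.6 RPKM with hPRM2. IGF2BP1 was at 17.3 to 24.4 and 4.49 to 9.74 RPKM. In the test described below, 10 of these markers were tested for hPRM2 against the empty vector. The fold change was negative for 8 and positive for 2, and 0 passed. The 3 libraries labelled hPRM1 also carry library numbers of another series, so for them library batch, cell make-up and plasmid cannot be told apart. They are called the libraries labelled hPRM1 throughout.

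With the empty vector, the repair genes were expressed over a wide range. A mean of at least 100 RPKM was measured for 5 members (PARP1, XRCC5, XRCC6, MSH6 and CHEK2), 22 members lay between 10 and 100 RPKM, 10 lay between 1 and 10 RPKM, and ATRIP and LIG4 were under 1 RPKM. All 3 empty vector libraries had a value above 0 for 36 of the 39 members, and in these the highest library was a median of 1.98 times the lowest. The members summed to 2002, 1923 and 1684 RPKM with the empty vector, to 1909, 1347 and 1292 RPKM with hPRM2, and to 128, 141 and 124 RPKM in the libraries labelled hPRM1. The median member rested on 921 to 1233 estimated reads in an empty vector library but on only 86.6 to 135 in an hPRM2 library and 26.9 to 49.5 in a library labelled hPRM1.

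**Figure D1:**
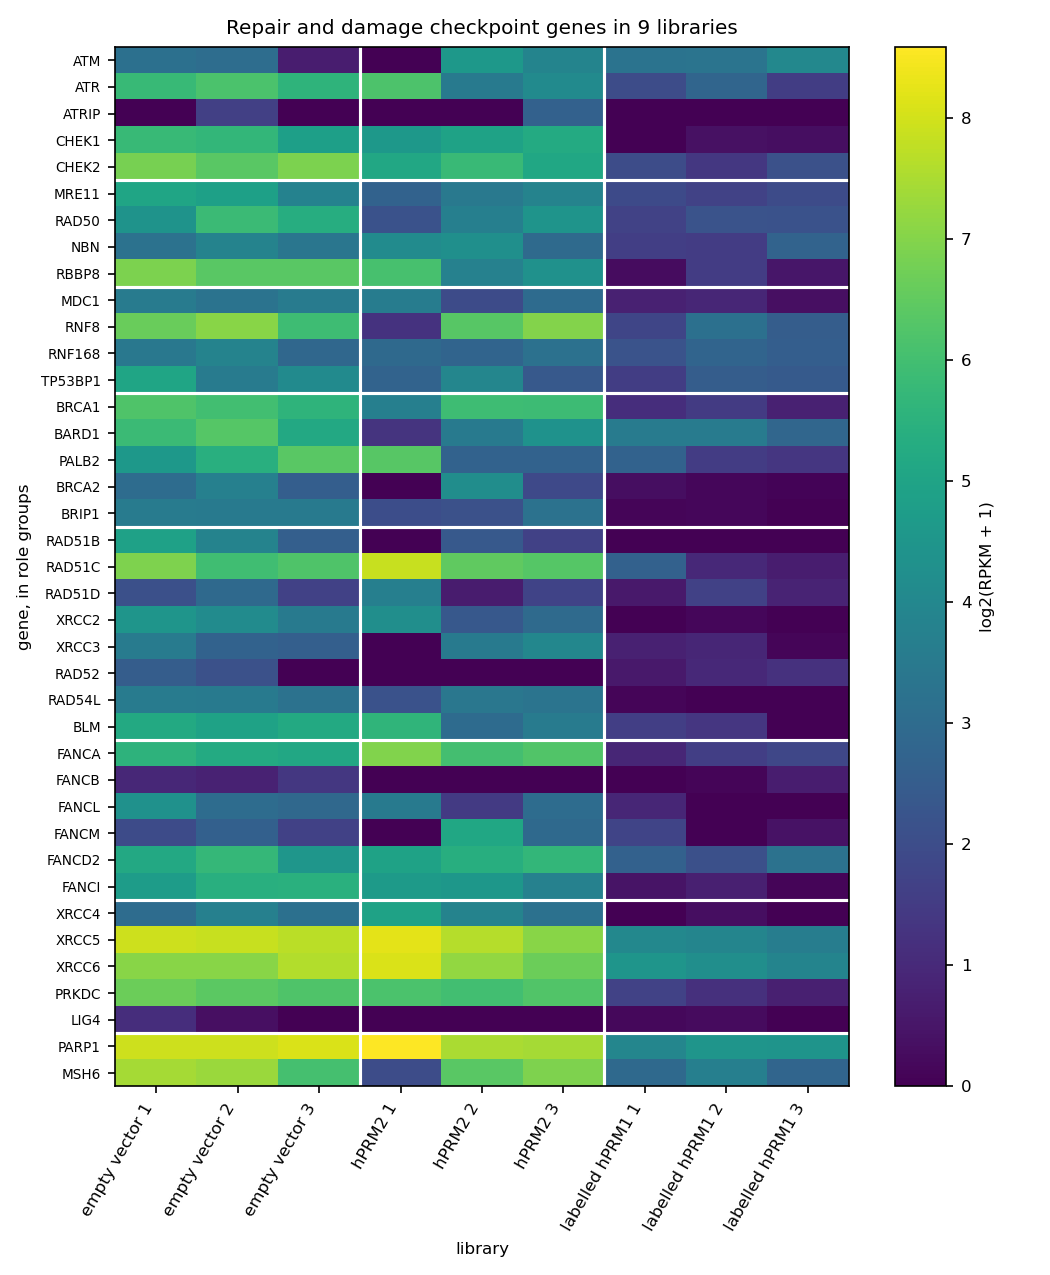
Level of each of the 39 genes (rows, in the 8 role groups split by white lines) in each of the 9 libraries (columns), as log2(RPKM + 1) by colour. The empty vector and hPRM2 columns are bright over much of their length, hPRM2 replicate 1 holds 9 members at 0, and the 3 columns labelled hPRM1 are dark for nearly every gene.

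None of the repair genes passed the test between hPRM2 and the empty vector. Of the 39 members, 35 had enough expression to be tested (at least 1 RPKM in at least 3 of the 6 libraries), and with limma on log2(RPKM + 1) 0 of them reached a Benjamini-Hochberg adjusted p of at most 0.05 and a 2-fold change. Over all 13126 genes tested, 1.37% passed as lower and 1.36% as higher (180 and 179 genes). This balance depended on the scaling, with 82 lower and 220 higher under the median of ratios and 70 lower and 342 higher under quantile normalization. The adjusted p-values of the members ran from 0.0946 to 0.939, with a median of 0.479. At an unadjusted p under 0.05 there were 5 members lower (BARD1, RAD51B, RBBP8, RAD50 and CHEK2), against 20.6% of all genes, and 1 higher (FANCA), against 4.88% of all genes. The per-gene test of the study's methods passed 0 members, but it passed only 9 of the 13126 genes tested, all as lower. A fit that takes the spread from all 9 libraries passed 2 members, CHEK2 and BARD1, both as lower. In the fit of all 9 libraries, 1618 of the 13126 genes tested passed as lower and 507 as higher.

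The shift of the members was close to that of all genes. The log2 fold change was negative for 27 of the 35 and positive for 8, and 75.4% of all genes tested had a negative sign. The median over the members was −0.75, beside −0.72 over all genes tested. With libraries rescaled by the median of ratios, which moved the median of all genes to −0.25, the member median was −0.19, and 8 members took the other sign (CHEK1, RNF168, RAD51D, XRCC3, RAD54L, XRCC5, PRKDC and PARP1). Libraries of the 2 groups did not overlap for 6 lower members (BARD1, RAD51B, RBBP8, CHEK2, BRIP1 and FANCI), beside 29.9% of all genes, and for 1 higher member (FANCA), beside 6.01% of all genes.

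These misses do not show that the levels were alike. The 95% interval of the log2 fold change reached a median of 1.49 to each side of the estimate, and it lay within 2-fold in both directions for 0 of the 35 members. A 2-fold lower level was inside the interval of 30 members, and a 2-fold higher level was inside that of 14.

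**Figure D2:**
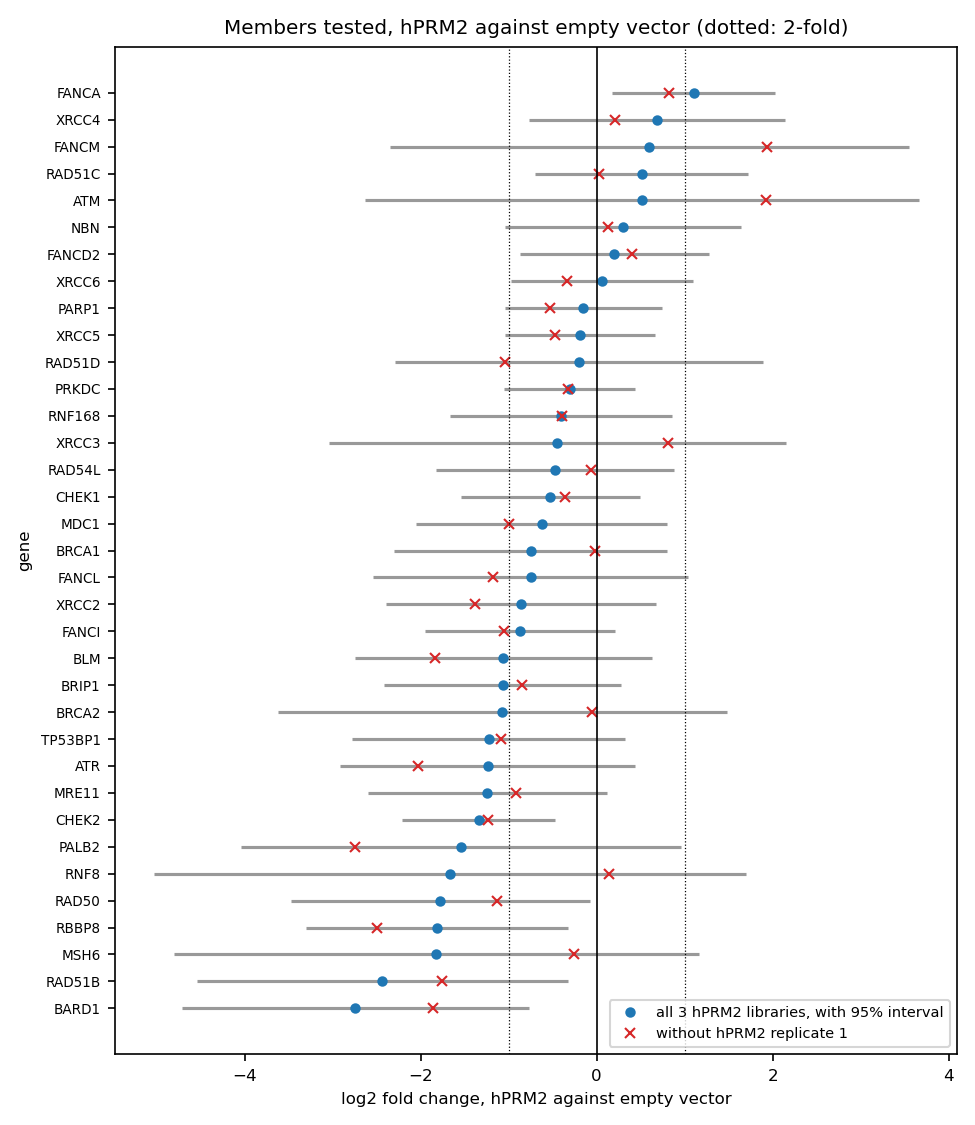
Log2 fold change of hPRM2 against the empty vector for the 35 members tested, sorted by size (points, with grey bars for the 95% interval over 3 against 3 libraries), and the same value with hPRM2 replicate 1 left out (crosses). The intervals are wide and most include 0, and the crosses of RNF8, MSH6, PALB2, ATM and FANCM lie far from their points.

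Among the kinases, CHEK2 had the highest level with the empty vector. CHEK2 encodes the checkpoint kinase that ATM phosphorylates, and it was at 111.5, 83.8 and 117 RPKM with the empty vector and at 34.5, 55.9 and 33.3 RPKM with hPRM2. All 3 hPRM2 libraries lay below all 3 empty vector libraries. The log2 fold change was −1.34 (SE 0.37, 95% interval −2.21 to −0.47, adjusted p = 0.0946), the smallest adjusted p of the members. CHEK1, the kinase downstream of ATR, was at 53.8, 50.8 and 27.9 RPKM with the empty vector and at 22.9, 29.6 and 36.7 RPKM with hPRM2, and the groups overlapped. ATM, the kinase activated at double-strand breaks, was at 7.91, 7.43 and 0.615 RPKM and at 0, 22.7 and 13.8 RPKM, so that each group held a library near or at 0. Its log2 fold change of 0.51 had an interval from −2.63 to 3.66 (adjusted p = 0.820). ATR, the kinase that answers single-stranded DNA, was at 54.4, 70.2 and 47.5 RPKM with the empty vector and at 72.2, 10.4 and 16.4 RPKM with hPRM2. Replicate 1 of hPRM2 was thus the highest of the 6 libraries for ATR and the other 2 were the lowest. ATRIP, the partner of ATR, was above 0 in only 2 of the 6 libraries and was not tested.

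The MRN complex and the resection factor RBBP8 gave 2 of the 5 members with the lowest fold changes. RBBP8 encodes CtIP, which starts the trimming of broken ends with MRE11, and lies at chr18:22798261-23026488 in GRCh38. Its level was 117, 82.3 and 83.0 RPKM with the empty vector and 67.8, 12.6 and 19.4 RPKM with hPRM2, and every hPRM2 library was below every empty vector library. The log2 fold change was −1.81 (SE 0.63, 95% interval −3.30 to −0.32, adjusted p = 0.143). RAD50, the ATPase that bridges DNA ends, was at 20.5, 56.9 and 40.3 RPKM with the empty vector and at 3.47, 12.1 and 20.9 RPKM with hPRM2. The groups met only at the lowest empty vector and the highest hPRM2 library (log2 fold change −1.78, SE 0.72, adjusted p = 0.183). MRE11, the nuclease of the complex, had a log2 fold change of −1.24 and NBN, which carries the signal to ATM, one of 0.30, and for both the groups overlapped.

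The 4 genes of the chromatin response at breaks, where ubiquitin marks on histones recruit repair proteins, had overlapping groups. RNF8, the ligase that starts the ubiquitin signal, was at 98.1, 133 and 59.96 RPKM with the empty vector and at 1.40, 80.8 and 128 RPKM with hPRM2. Only replicate 1 of hPRM2 lay outside the empty vector range. The log2 fold change of −1.67 had an interval from −5.03 to 1.70, and without that library it was 0.14. RNF168, the ligase that extends the signal, was at 9.83, 13.3 and 6.37 RPKM and at 6.73, 5.86 and 8.27 RPKM. MDC1, the adaptor that binds phosphorylated H2AX, and TP53BP1, which holds back resection, had log2 fold changes of −0.63 and −1.23.

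BARD1 had the lowest fold change of all members tested. BARD1 is the partner that forms the BRCA1 ubiquitin ligase, and it was at 56.7, 79.6 and 35.3 RPKM with the empty vector and at 1.42, 10.3 and 19.6 RPKM with hPRM2. The 2 groups were apart, and replicate 1 was the lowest. The log2 fold change was −2.74 (SE 0.83, 95% interval −4.71 to −0.77, adjusted p = 0.115). BRCA1, the highest of this group with the empty vector, was at 73.3, 62.5 and 46.5 RPKM and at 12.1, 60.2 and 57.7 RPKM with hPRM2. Replicates 2 and 3 of hPRM2 lay inside the empty vector range and replicate 1 lay below it (log2 fold change −0.75, adjusted p = 0.479). PALB2, which joins BRCA1 to BRCA2, was at 23.1, 41.3 and 83.3 RPKM and at 80.3, 5.57 and 5.56 RPKM, so that replicate 1 was within the empty vector range and the other 2 were below it. BRIP1, a helicase that binds BRCA1, was within 10.2 to 11.004 RPKM in the empty vector libraries and within 3.06 to 8.34 RPKM with hPRM2, with no overlap (log2 fold change −1.07, adjusted p = 0.277). BRCA2, which binds PALB2, spanned 4.91 to 12.5 RPKM and 0 to 17.6 RPKM.

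In the strand exchange group RAD51B and RAD51C had values on opposite sides of 0. RAD51B, a strand exchange factor, was at 29.1, 13.3 and 5.02 RPKM with the empty vector and at 0, 4.27 and 2.14 RPKM with hPRM2. The groups were apart by less than 1 RPKM, with a log2 fold change of −2.43 (SE 0.89, 95% interval −4.54 to −0.33, adjusted p = 0.156). RAD51C, a strand exchange factor, was at 121, 61.5 and 74.4 RPKM and at 233, 88.7 and 78.6 RPKM. Its hPRM2 replicate 1 was above every other library and the other 2 were inside the empty vector range (log2 fold change 0.51, adjusted p = 0.535, and 0.02 without replicate 1). RAD51D, of the same role group, was at 3.24, 6.64 and 2.17 RPKM and at 11.98, 0.565 and 2.30 RPKM. RAD52, an annealing protein, was at 4.74, 3.40 and 0 RPKM with the empty vector and at 0 in all 3 hPRM2 libraries. A 0 there allows up to 0.960 RPKM (3 reads in the library with the highest such limit, counting error only), so the empty vector mean was at least 2.83-fold higher, but RAD52 was not tested. XRCC2, XRCC3, RAD54L and BLM, which work on recombination intermediates, had log2 fold changes between −1.06 and −0.45 and overlapping groups.

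FANCA was the member with the highest fold change. FANCA is a subunit of the Fanconi anaemia core complex, which adds ubiquitin to FANCD2 and FANCI at interstrand crosslinks, and lies at chr16:89737549-89816657 in GRCh38. It was at 46.2, 36.9 and 34.4 RPKM with the empty vector and at 125, 63.4 and 76.1 RPKM with hPRM2, and all hPRM2 libraries were above all empty vector libraries. The log2 fold change was 1.10 (SE 0.39, 95% interval 0.18 to 2.02, adjusted p = 0.148), 0.82 without replicate 1 (adjusted p = 0.0832), and 1.65 with the median of ratios (adjusted p = 0.0506). FANCM, the translocase that anchors the core complex, was at 2.86, 5.23 and 2.14 RPKM and at 0, 33.7 and 6.58 RPKM, a spread that covered the empty vector range on both sides. FANCI, the partner of FANCD2, was within 26.0 to 43.2 RPKM in the empty vector libraries and within 12.8 to 24.8 RPKM with hPRM2, without overlap (log2 fold change −0.87, adjusted p = 0.270). FANCD2 itself had a log2 fold change of 0.20 and FANCL, the ubiquitin ligase subunit, one of −0.75. FANCB, a core subunit, was at 0.772 to 1.63 RPKM with the empty vector and at 0 in every hPRM2 library, where up to 0.856 RPKM is allowed, and was not tested.

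The end joining genes that were tested had overlapping groups. XRCC5, the Ku80 subunit of the ring that clamps broken ends, was at 245, 231 and 207 RPKM with the empty vector and at 298, 199.8 and 133 RPKM with hPRM2, and its log2 fold change of −0.19 had an interval from −1.04 to 0.66. XRCC6, the Ku70 subunit, gave 0.06 (interval −0.97 to 1.09). PRKDC, the catalytic subunit of DNA-PK, was at 101, 85.3 and 73.5 RPKM with the empty vector and at 70.7, 62.2 and 75.4 RPKM with hPRM2 (log2 fold change −0.31, interval −1.05 to 0.44). PRKDC had the narrowest interval of the 35 members, and XRCC5 the next. XRCC4, the scaffold of DNA ligase IV, was at 7.28, 12.5 and 7.96 RPKM and at 30.2, 13.4 and 8.17 RPKM, with the highest value in replicate 1 (log2 fold change 0.68, adjusted p = 0.492). LIG4, the ligase, was at most 1.18 RPKM in any library and was not tested.

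The sensors of single-strand breaks and of mismatches had overlapping groups. PARP1, which binds nicks and builds poly(ADP-ribose), was the most highly expressed member at 245, 244 and 271 RPKM with the empty vector, and it was at 384, 181 and 170.0 RPKM with hPRM2. MSH6, a subunit of the MutSα mismatch sensor, was at 172, 158 and 64.9 RPKM and at 2.97, 83.9 and 121 RPKM. Replicate 1 of hPRM2 was the highest of the 6 libraries for PARP1 and the lowest for MSH6. Neither difference passed, with log2 fold changes of −0.15 (interval −1.05 to 0.75) and −1.82 (interval −4.81 to 1.17), the latter −0.26 without replicate 1 of hPRM2.

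**Figure D3:**
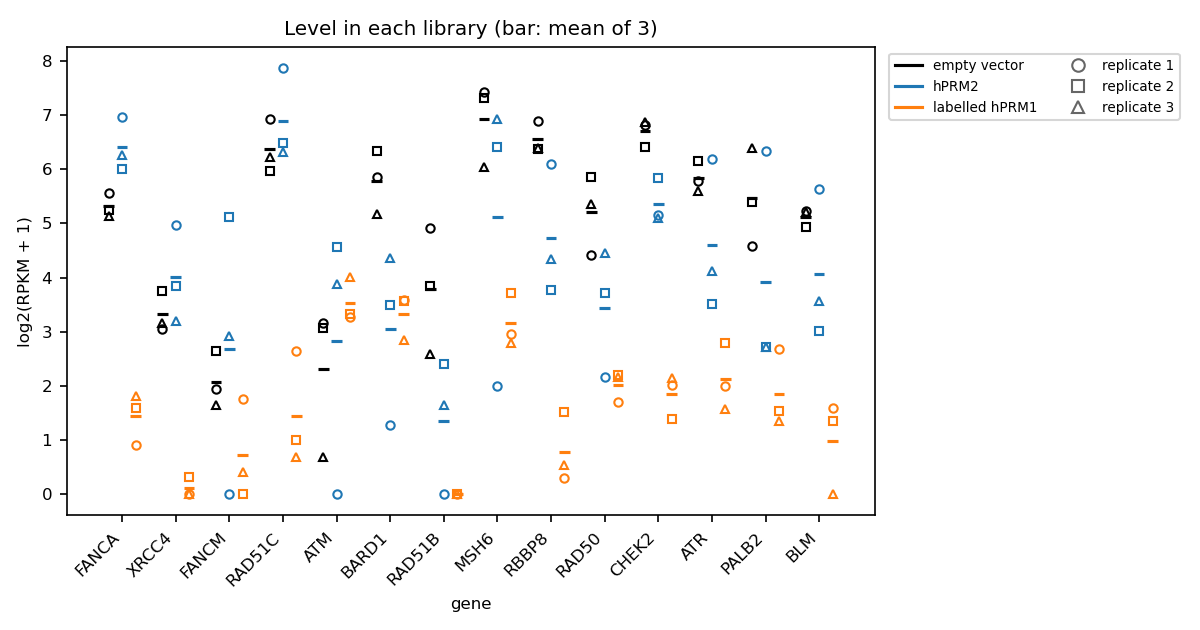
Level of 14 members in every library as log2(RPKM + 1), for the 10 members with the 5 highest and 5 lowest fold changes of hPRM2 against the empty vector and for CHEK2, ATR, PALB2 and BLM (symbols mark replicates, bars the mean of 3, colours the group). hPRM2 replicate 1 (blue circles) is the lowest hPRM2 library for BARD1 and MSH6 and the highest for ATR, PALB2 and BLM, while the libraries labelled hPRM1 (orange) lie lowest for most genes.

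The promoters of the 3 members with the largest absolute fold changes are shown, although none of the 3 passed and the value of MSH6 rests on hPRM2 replicate 1. They run from 250 bases before to 50 bases after the first listed RefSeq start of each gene (GRCh38.p14, with several starts listed for RAD51B and MSH6), at chr2:214809634-214809933 on the minus strand for BARD1, chr14:67823291-67823590 on the plus strand for RAD51B and chr2:47782895-47783194 on the plus strand for MSH6. Capitals mark matches on either strand to 3 motifs of genes transcribed in the cell cycle, which are the E2F motif (TTTCCCGC, TTTGGCGC, TTTCGCGC or TTTGCCGC), the CHR motif (TTTGAA) and the CCAAT box (CCAAT).
BARD1: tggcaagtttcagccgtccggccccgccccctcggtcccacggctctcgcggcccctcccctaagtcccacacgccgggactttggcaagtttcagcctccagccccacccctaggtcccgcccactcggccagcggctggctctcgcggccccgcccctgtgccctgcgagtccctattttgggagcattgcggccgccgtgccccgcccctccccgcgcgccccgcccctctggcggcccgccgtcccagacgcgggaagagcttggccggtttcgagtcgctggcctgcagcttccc
RAD51B: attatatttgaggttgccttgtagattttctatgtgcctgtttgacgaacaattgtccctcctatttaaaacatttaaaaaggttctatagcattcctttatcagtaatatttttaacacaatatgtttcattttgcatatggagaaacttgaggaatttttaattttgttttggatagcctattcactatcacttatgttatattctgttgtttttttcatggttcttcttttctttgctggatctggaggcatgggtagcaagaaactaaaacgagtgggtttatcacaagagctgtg
MSH6: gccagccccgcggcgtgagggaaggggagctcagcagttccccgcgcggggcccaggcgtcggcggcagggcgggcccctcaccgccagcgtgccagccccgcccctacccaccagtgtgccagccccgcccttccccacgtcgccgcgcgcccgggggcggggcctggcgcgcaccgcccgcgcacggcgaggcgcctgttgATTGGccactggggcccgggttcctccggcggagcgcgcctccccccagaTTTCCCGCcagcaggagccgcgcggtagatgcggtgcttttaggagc
MSH6 held 1 E2F match and 1 CCAAT box on the opposite strand, and BARD1 and RAD51B held no match to these letters in the windows shown. The windows of RAD51B and MSH6 lie inside the genes, whose first bases in GENCODE 29 are chr14:67819779 and chr2:47695530. Other starts of these genes were not searched. Of the 39 members, 35 had a promoter in the table. The E2F motif was in 5 of them (FANCA, FANCD2, MSH6, XRCC2 and XRCC6), or 14.3%, against 3.3% of 27303 promoters of all genes. The CCAAT box was in 18, or 51.4%, against 35.7%, and the CHR motif was in 3 (ATM, BRIP1 and MDC1), or 8.6%, against 15.4%. The 5 members with an E2F match had log2 fold changes between −1.82 and 1.10 for hPRM2, so members with and without these letters were found on both sides of 0.

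Much of the spread in the hPRM2 group came from replicate 1. Over 36 members with values, this library was the highest of the 3 for 15, the lowest for 15 and in between for 6, and over all 14901 genes it was the highest for 32.8% and the lowest for 39.1%. Its log2(RPKM + 1) lay at least 2 above the mean of the other 2 libraries for 5 members (ATR, RBBP8, PALB2, RAD51D and BLM) and at least 2 below it for 9, among them RNF8 (−5.42), MSH6 (−4.68), ATM (−4.23) and FANCM (−4.02). The median distance of replicate 1 from the other 2 was 1.35 for members and 1.22 for all genes, while replicates 2 and 3 were a median of 0.58 apart for members and 0.61 for all genes. The SD between replicates had a median over members of 0.87 with hPRM2, 0.41 with replicate 1 left out, and 0.49 with the empty vector. The value of 0.41 rests on 2 libraries and the others on 3, so they compare only roughly. Replicate 1 had the most estimated reads of the 3 hPRM2 libraries and the fewest genes above 0. What sets it apart was not tested.

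Without replicate 1, 5 members fell with hPRM2 and 0 rose, beside 12.3% of all genes lower and 5.3% higher among 12825 tested. These were ATR (log2 fold change −2.03, adjusted p = 0.0252), RBBP8 (−2.49, adjusted p = 0.0148), BARD1 (−1.86, adjusted p = 0.0464), PALB2 (−2.75, adjusted p = 0.0338) and BLM (−1.84, adjusted p = 0.0303), a helicase that dissolves recombination intermediates. ATR, PALB2 and BLM are named here because of these values. In that fit only 2 hPRM2 libraries remain, and the 5 of 35 members are a share close to that of all genes. The libraries were apart for 13 lower members, beside 47.5% of genes, and for 3 higher members (ATM, FANCM and FANCA), beside 13% of genes. The member median was −0.48 and that of all genes −0.73. BARD1 and RBBP8 were lower than the empty vector in all 3 hPRM2 libraries, whereas for ATR, PALB2 and BLM the difference was present in replicates 2 and 3 only.

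Other genes of the pathway were taken as 3 lists. Of 62 other repair and checkpoint genes, 58 were tested and 0 passed between hPRM2 and the empty vector, with 11 lower and 1 higher at an unadjusted p under 0.05 (20.6% and 4.88% of all genes) and a median log2 fold change of −0.86, beside −0.72 over all genes. Among 25 genes that p53 induces after damage, 23 were tested, 2 fell and 0 rose, beside 1.37% and 1.36% of all genes, with a median of −1.13. SESN2, a stress sensor that restrains mTORC1, was at 83.9, 117 and 118 RPKM with the empty vector and at 19.9, 21.1 and 20.6 RPKM with hPRM2 (log2 fold change −2.30, SE 0.34, adjusted p = 0.0297). AEN, a nuclease of apoptosis, was at 62.4, 80.7 and 63.9 RPKM and at 12.2, 11.8 and 12.6 RPKM (log2 fold change −2.40, SE 0.37, adjusted p = 0.0320). For both genes the 3 hPRM2 libraries lay close together and far below the empty vector libraries. Genes of this list that passed numbered 0 with the median of ratios, 2 (both lower) with quantile normalization, and 8 lower and 2 higher without hPRM2 replicate 1, where 12.3% and 5.3% of all genes passed. CDKN1A, the checkpoint inhibitor that p53 is best known to induce, is named for that role and did not pass (log2 fold change 0.63, adjusted p = 0.313). It was at 38.8, 39.02 and 37.8 RPKM with the empty vector and at 77.7, 63.8 and 43.8 RPKM with hPRM2. Every hPRM2 library was thus above every empty vector library. The 2 groups did not overlap for 11 lower and 2 higher genes of this list, CDKN1A included, beside 29.9% and 6.01% of all genes. Of 20 proliferation genes, all were tested and 0 passed, with 8 lower and 0 higher at an unadjusted p under 0.05 and a median of −0.83.

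The libraries labelled hPRM1 had far lower levels of nearly all repair genes than the empty vector libraries. Of 36 members tested, 33 fell and 0 rose, while 62.5% of the 13588 genes tested fell and 12.9% rose. The filter admits a gene through the 3 empty vector libraries alone, and such a gene could hardly pass as higher. With 1 empty vector library left out, 24 or 25 members were tested and 20 to 24 fell. Of all genes, 5606 to 5917 then fell among 10512 to 10665 tested. The fold changes of the 33 ran from 2.27-fold to 54.7-fold lower, with adjusted p-values from 5.88e-06 to 0.0448 (limma, Benjamini-Hochberg). The member median was −3.42 on the log2 scale, beside −1.72 over all genes tested. RPKM is a share of each library, and with the median of ratios the median of all genes moved to −0.12. On that scale 24 members fell and 2 rose (ATM and RNF168), beside 28.9% of genes lower and 28.8% higher, and the member median was −1.79. The per-gene test of the study's methods passed 12 members, all lower, beside 3723 lower and 791 higher of all 13588 genes. In these libraries white cell and red cell markers were high and HEK293T markers near 0, as given above, and their part in these differences was not tested.

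RBBP8, PRKDC, CHEK1, RAD51C and CHEK2 had the lowest fold changes in these libraries. RBBP8 was at 0.224, 1.86 and 0.445 RPKM in the libraries labelled hPRM1 (log2 fold change −5.77, SE 0.37, adjusted p = 1.77e-05). PRKDC was at 2.26, 1.31 and 0.707 RPKM (−5.21, SE 0.29), CHEK1 at 0, 0.304 and 0.245 RPKM (−5.21, SE 0.31), and RAD51C at 5.28, 1.004 and 0.604 RPKM (−4.93, SE 0.56). CHEK2 was at 3.03, 1.62 and 3.40 RPKM (−4.86, SE 0.27), and BRCA1 at 1.20, 1.82 and 0.737 RPKM (−4.78, SE 0.28). Every one of these libraries lay below every empty vector library. RAD51B was at 0 in all 3, which allows up to 0.304 RPKM, so the empty vector mean of 15.8 RPKM was at least 52.1-fold higher. With RAD51B set at this bound the member median stayed at −3.42. XRCC4 was at 0, 0.239 and 0 RPKM, and FANCA at 0.883, 2.02 and 2.52 RPKM.

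Some members kept a level of several RPKM. XRCC5 was at 15.3, 14.03 and 11.6 RPKM, and PARP1 at 14.4, 21.3 and 20.9 RPKM, 15.7-fold and 12.9-fold lower than with the empty vector. BARD1 was at 10.96, 10.9 and 6.20 RPKM, RNF8 at 2.46, 7.92 and 4.76 RPKM, and RAD50 at 2.26, 3.60 and 3.46 RPKM. MSH6 was at 6.73, 12.1 and 5.93 RPKM (log2 fold change −3.78). Each of these fell, but the fall of BARD1 no longer passed with the median of ratios (log2 fold change −0.38, adjusted p = 0.349).

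ATM was the only member tested with a positive fold change in the libraries labelled hPRM1. It was at 8.63, 8.97 and 15.0 RPKM there, above the empty vector values of 7.91, 7.43 and 0.615 RPKM in every library, although the log2 fold change of 1.22 (SE 0.68, 95% interval −0.42 to 2.86) did not pass (adjusted p = 0.141). With the median of ratios it did (2.96, adjusted p = 0.00289). RNF168 was at 3.61, 5.83 and 4.88 RPKM, below the empty vector in all 3 libraries but under the 2-fold limit (−0.87, adjusted p = 0.0357), and it turned to 1.02 with the median of ratios. RAD52 was at 0.485, 0.965 and 1.36 RPKM (−0.63, adjusted p = 0.408). RAD51D, at 0.512, 2.19 and 0.815 RPKM (−1.18, adjusted p = 0.0404), and FANCM, at 2.40, 0 and 0.323 RPKM (−1.36, adjusted p = 0.0448), fell with overlapping groups. ATRIP, FANCB and LIG4 were too low to test.

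**Figure D4:**
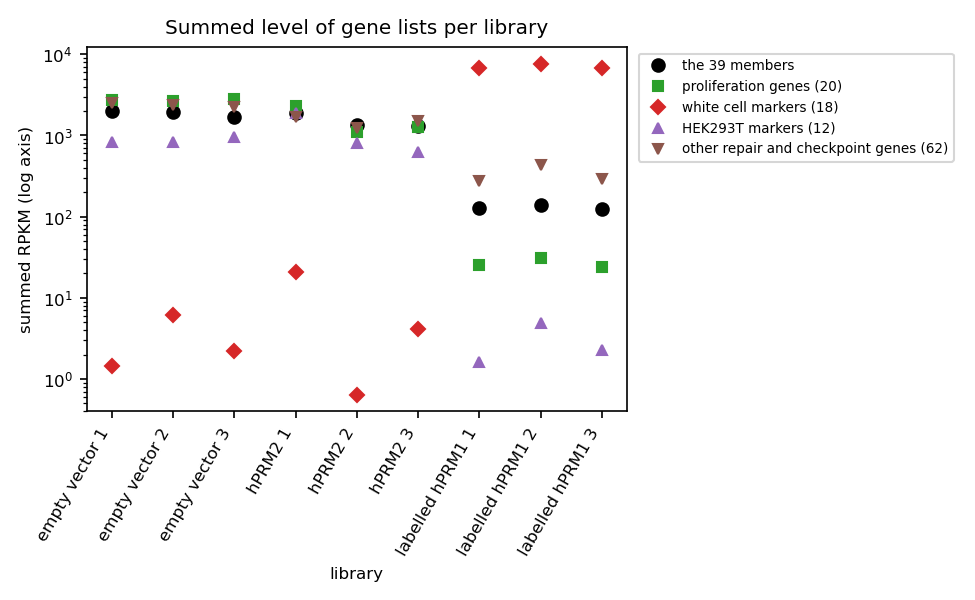
Summed RPKM of the 39 members and of 4 other gene lists in each of the 9 libraries, on a log axis (the number of genes in brackets). In the libraries labelled hPRM1 the members stand at 124 to 141 RPKM, proliferation genes at 24.1 to 30.6 RPKM and HEK293T markers at 1.64 to 4.88 RPKM, and white cell markers are at 6728 RPKM or more.

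Counts for the other lists come from the same fit, in which 62.5% of all 13588 genes tested fell and 12.9% rose. All 20 proliferation genes fell, with a median log2 fold change of −5.40, or −4.04 with the median of ratios. Of 58 other repair and checkpoint genes tested, 51 fell and 1 rose, with a median of −2.65, and with the median of ratios 28 fell and 4 rose (median −1.10), beside 28.9% and 28.8% of all genes. SLFN11, a protein that blocks stalled replication forks, was the gene that rose without rescaling. It was at 1.23 to 2.24 RPKM in these libraries and at 0 in the other 6. Of 24 genes that p53 induces, 17 fell and 0 rose, with a median of −1.83, close to that of all genes, but with the median of ratios 8 fell and 5 rose (median −0.41). The summed level of the proliferation genes was 24.1 to 30.6 RPKM, against 2677 to 2816 RPKM with the empty vector and 1099 to 2335 RPKM with hPRM2, and its part in the lower member levels was not tested.

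Set directly against hPRM2, the libraries labelled hPRM1 were lower for most members. Of 32 members tested, 22 were lower and 0 higher, beside 37% and 16% of 11756 genes. The median was −2.58 for the members and −0.97 for all genes, and −1.29 and 0.49 with the median of ratios, where 15 members were lower and 1 (RNF168) higher, beside 18.3% and 31.2% of genes. The 22 had adjusted p-values from 0.000226 to 0.0371. RAD51C (log2 fold change −5.44, SE 0.70), FANCA (−4.98, SE 0.44), PRKDC (−4.91, SE 0.38) and CHEK1 (−4.68, SE 0.38) were among them. BARD1 (0.28, interval −1.74 to 2.31) and ATM (0.71, interval −2.23 to 3.65) were the members with a positive fold change, and neither passed. All 22 were also lower than in the empty vector libraries, a comparison that shares the libraries labelled hPRM1. Without hPRM2 replicate 1, 18 of 23 members tested were lower and 0 higher, beside 42.1% and 20.5% of genes, and RAD50, RNF8, FANCM and MSH6 then passed.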

How the data were processed

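RNA was measured in 9 libraries of 3 groups. The authors counted reads on genes with nf-core/rnaseq (FastQC, Cutadapt, STAR and Salmon, versions not given in the sources used here; build hg38 per the submitters' processing notes), removed mitochondrial genes, and deposited RPKM values (the share of the library's reads on a gene, divided by the gene's length in kilobases). With 3′ libraries, division by length lowers long genes, so levels of different genes compare only roughly. Replicates were not pooled, and 0 further columns of values were left unused. Library depth was estimated from the steps between low RPKM values, over 13863 genes with a single GENCODE 29 transcript of 600 to 20000 bases, with 250 bases subtracted. Whole reads could not be recovered for most genes, which left count models unused. At a value of 0, up to 3 reads were allowed for.

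Tests between groups used limma 3.58.1 in R 4.3.3 (lmFit, eBayes with trend and robust) on log2(RPKM + 1), over genes with at least 1 RPKM in at least 3 of 6 libraries, with Benjamini-Hochberg adjustment over all genes tested. This scale understates changes of low genes. In each comparison a gene can meet the filter through 1 group alone, and it can then hardly pass as higher in the other group. A gene passed with an adjusted p no higher than 0.05 together with a change of 2-fold or more. With 3 libraries against 3, an exact permutation test of 1 gene cannot go below p = 0.1, so none is given. The scripts were tested on simulated data. For hPRM2 against the empty vector, 0% of 200 genes given a 2-fold change passed, and 0% of 200 given a 4-fold change. With an 8-fold change 30% passed, so most changes of these sizes were missed in the simulation. It shuffled the spread between replicates over genes and changed only 200 genes. These shares therefore need not hold for the measured genes. Python 3.11.15, pandas 2.3.3, numpy 2.4.6 and matplotlib 3.10.9 were used otherwise. Coordinates are from GENCODE 29 (GRCh38) and promoters from RefSeq (GRCh38.p14).

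The members, role groups, lists, tests and motifs were chosen with earlier results of these data known. Values in every library are given for members that passed with hPRM2, for the 5 highest and 5 lowest fold changes of hPRM2 and of the libraries labelled hPRM1 against the empty vector, and for the member of each role group highest with the empty vector. This gave 20 members. Lists are given by counts, medians and the 2 largest changes that passed. The alternatives changed the pseudocount (0.1 or 5), the filter (none, or 10 RPKM), the scaling (median of ratios or quantiles), the libraries in the fit (all 9, or each left out in turn), the block (replicate number), the fold threshold (none) and the test (per gene on RPKM, after the study's methods).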

Additional observations from a re-analysis of the deposited data

Results flagged for a closer look

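FANCA lay on opposite sides of the empty vector with hPRM2 and in the libraries labelled hPRM1. All 3 hPRM2 libraries (63.4 to 125 RPKM) lay above the empty vector libraries (34.4 to 46.2 RPKM), and all 3 libraries labelled hPRM1 (0.883 to 2.52 RPKM) lay below them. The fall in the libraries labelled hPRM1 passed the test and the difference with hPRM2 did not (adjusted p = 0.148). The direct test between the 2 groups gave a log2 fold change of −4.98 (limma, adjusted p = 0.000326). It was the only one of the 39 members with this pattern. Of all genes tested, 6.01% had every hPRM2 library above every empty vector library, and 62.5% fell in the libraries labelled hPRM1. How many of all genes show both was not counted. Groups of 3 libraries were too small for a search for single outlying values.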

How the results depend on the processing

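For hPRM2 against the empty vector, 0 members passed under the other pseudocounts, filters, scalings, the replicate block, the per-gene test and without the fold threshold. The exceptions were 2 members (CHEK2 and BARD1) in the fit of all 9 libraries and 0 to 5 when 1 library was left out, with 5 without hPRM2 replicate 1. Over all genes 359 passed, and 89 without a filter, 167 with a minimum of 10 RPKM, 2125 in the fit of all 9 libraries, 57 with the replicate block, 9 in the per-gene test, and 10 to 2257 with 1 library left out (2257 without hPRM2 replicate 1). The member median of −0.75 ran from −0.82 to −0.48 with 1 library left out. For the libraries labelled hPRM1 against the empty vector, 33 members passed, and 12 in the per-gene test and 20 to 33 with 1 library left out. The lowest counts came without an empty vector library, where fewer members reach the filter (24 or 25 in both fits). Of all genes 10241 passed, and 5837 with the minimum of 10 and 4514 in the per-gene test, with 7422 to 9142 when 1 library was left out. The member median of −3.42 became −4.06 and −2.06 with pseudocounts of 0.1 and 5, −3.88 with the minimum of 10, −1.79 with the median of ratios, −2.08 with quantile normalization, and −3.65 to −3.14 with 1 library left out. With the median of ratios NBN (0.29), RNF168 (1.02), RAD51D (0.20) and RAD52 (0.52) took a positive sign, and with quantile normalization NBN (0.056), RNF168 (0.74), RAD51D (0.15) and RAD52 (0.54) did. For the libraries labelled hPRM1 against hPRM2, 22 members passed, and 13 with the minimum of 10, 0 in the per-gene test and 12 to 18 with 1 library left out (12 without hPRM2 replicate 2 or 3). Of all genes 6234 passed, and 3750 with the minimum of 10, 219 in the per-gene test and 3419 to 6473 with 1 library left out (3478, 3650 and 3419 without replicates 1, 2 and 3 labelled hPRM1). The member median of −2.58 became −3.40 and −1.79 with pseudocounts of 0.1 and 5, −3.66 with the minimum of 10, −1.29 with the median of ratios, −1.85 with quantile normalization and −2.87 to −2.502 with 1 library left out. MRE11 (0.12), RNF168 (1.17), RAD50 (0.16), TP53BP1 (0.71) and RAD51D (0.18) turned positive with the median of ratios, and TP53BP1 (0.045) and RNF168 (0.49) with quantile normalization. The cause of these changes was not tested.

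No effect shared by same-numbered libraries was seen. Their deviations correlated between −0.08 and 0.08 over 14901 genes, and not every library correlated best with its own number. Whether same-numbered libraries were made together cannot be told from these values. With the replicate block 0, 32 and 19 members passed in the 3 comparisons. Low read numbers limit both protamine-labelled groups, since 4 to 9 members per hPRM2 library and 12 to 16 per library labelled hPRM1 had fewer than 10 estimated reads. The 95% interval of hPRM2 against the empty vector reached a median of 1.49 on the log2 scale to each side.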
